A study of Mus musculus with 6 samples.

Results

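The genes described here encode regulators of pre-mRNA splicing: the heterogeneous nuclear ribonucleoproteins (hnRNPs), the serine/arginine-rich (SR) proteins, and a named set of regulators known from muscle and from developmental splicing. The rule uses gene symbols and no values, but the set was chosen with earlier results of these data known. A symbol beginning with *Hnrnp*, or with *Srsf* and a number, was taken unless it carried the pseudogene suffix -ps, and *Mbnl1*, *Mbnl2*, *Mbnl3*, *Celf1*, *Celf2*, *Rbfox1*, *Rbfox2*, *Ptbp1*, *Ptbp2*, *Ptbp3*, *Rbm20*, *Rbm24*, *Rbm38*, *Qk*, *Tra2a*, *Tra2b*, *Khdrbs1* and *Nova1* were added by name. This gave 49 of the 20654 genes in the count table, made up of 20 hnRNP genes, 11 SR protein genes and 18 named regulators.

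RNA-seq was performed on muscle satellite cells (MuSCs), the stem cells of skeletal muscle, from mice on a C57BL/6 background. The 3 control libraries are labelled wild type. The study names *Pax7*CreERT2/+ cells as the counterpart of *Piezo1* cKO in its expression comparison, without giving the *Piezo1* alleles of these libraries. The 3 *Piezo1* cKO libraries came from mice with floxed *Piezo1* and *Pax7*CreERT2/+, in which *Piezo1*, the gene of a mechanosensitive cation channel, is to be deleted. The Cre recombinase was expressed from the *Pax7* locus, so the deletion was aimed at *Pax7*-expressing cells, and needed tamoxifen. For its ex vivo experiments the study describes daily tamoxifen injections of the mice. Cells sorted as VCAM1+, Sca1-, CD31- and CD45- were grown for 3 d on Matrigel in medium with 30% foetal bovine serum, 1% chicken embryo extract and 10 ng/ml basic fibroblast growth factor, and 4-hydroxytamoxifen at 1 μM was present in both groups. The ages of the mice are not given in the sources used here. The labels do not say whether the 3 libraries of a group came from separate animals. The SDs and SEs below therefore rest on these libraries, and not on a known number of animals. Each library held 740936, 931168 and 891531 counts in wild type and 810096, 726378 and 769295 counts in *Piezo1* cKO.

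The values are counts of unique molecular identifiers (UMIs), so each counted molecule enters once, near the 3′ end of its transcript, and counts were not divided by transcript length. Levels are given as TMM CPM, counts scaled to a library of 1000000 with TMM factors for composition, and summed levels of lists as CPM on library totals. A gene was called when the adjusted p of the edgeR quasi-likelihood test was under 0.05. *Piezo1* itself had 11, 5 and 6 counts in wild type and 7, 12 and 9 counts in *Piezo1* cKO (log2 fold change 0.42, SE 0.46, edgeR adjusted p = 0.791). Its log2 fold change ranged from 0.14 without wild type library 2 to 0.93 without wild type library 1. Its counts did not separate the groups and therefore did not check the labels. The position of the deleted exons relative to the counted 3′ end was not examined. The markers of the labelled cell type were present: the summed level of 7 MuSC and myoblast markers was 2420 ± 145 CPM in wild type and 2446 ± 202 CPM in *Piezo1* cKO (SD, n = 3 each). *Myod1*, the most abundant, averaged 1345 CPM over all libraries, while *Pax7* had 10, 26 and 19 counts in wild type and 16, 5 and 12 in *Piezo1* cKO. The sum hides differences in direction: 4 of the 7 had a log2 fold change above 0 and 3 below. *Cdh15* (0.53) and *Vcam1* (-0.45) had separate groups, and edgeR called 0 of the 7. Of 6 immune markers, *Ptprc*, *Adgre1*, *Cd3e* and *Cd79a* were not in the count table, and the endothelial and immune lists each summed to at most 18.2 CPM in any library.

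Splicing removes introns from nascent RNA and joins exons. The spliceosome carries out the reaction, and RNA-binding proteins decide which exons it uses. SR proteins bind exonic enhancers and generally promote exon inclusion, whereas many hnRNPs bind silencers and favour skipping, so the balance of the families sets the outcome at many exons. Both families regulate their own transcripts, often by including an exon that exposes the RNA to nonsense-mediated decay. In skeletal muscle, MBNL, CELF, RBFOX, PTB, RBM20 and RBM24 proteins switch exons of sarcomere and calcium-handling genes as myoblasts differentiate.

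*Hnrnpa1* fell in *Piezo1* cKO and was the 1 splicing regulator whose change passed the test. Of the rest, most hnRNP genes and each tested SR protein gene had a lower mean in *Piezo1* cKO, by amounts that did not pass the test, and the named muscle regulators lay on both sides of 0. Of the 49 genes, 42 passed the filter on low counts and were tested: all 20 hnRNP genes, 9 of 11 SR protein genes and 13 of 18 named regulators. Of these 42, edgeR called 1 lower and 0 higher, against 27 lower (0.316%) and 40 higher (0.468%) of all 8551 genes tested, which is 67 genes or 0.784% in either direction. DESeq2 gave an adjusted p to 37 of them and also called 1 lower and 0 higher, where it called 15 of 4007 genes lower (0.374%). limma-voom likewise called 1 of 42 lower and 0 higher, against 24 lower (0.281%) and 48 higher (0.561%) of all 8551 genes, and the gene was *Hnrnpa1* by all 3 tools. At an unadjusted edgeR p under 0.05, 6 members were lower and 1 was higher, against 494 (5.78%) and 525 (6.14%) of all genes tested.

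The direction was unevenly distributed over the members. Of the 42, 28 had a log2 fold change below 0 (66.7%, against 49.8% of all genes tested), and their median was -0.11, against 0.00 for all genes. In 10 of them (23.8%) every *Piezo1* cKO library lay below every wild type library, which held for 8.31% of all genes tested, and in 2 (4.76%) every *Piezo1* cKO library lay above, which held for 8.2%. On library totals without TMM scaling, a comparison added after seeing the data, these numbers were 7 (16.7%) and 3 (7.14%), against 5.09% and 11.6% of all genes tested, as *Srsf1*, *Srsf7* and *Tra2b* then overlapped and *Rbm24* was separate on the higher side. By class, 14 of 20 hnRNP genes, 9 of 9 SR protein genes and 5 of 13 named regulators were below 0, with medians of -0.10, -0.20 and 0.07. Without 1 library at a time, the number below 0 ranged from 23 of 42, when wild type library 2 was left out, to 31, when *Piezo1* cKO library 1 was left out, and the median from -0.19 to -0.027. The SR protein genes below 0 numbered 8 of 9 without wild type library 2 and 9 of 9 without any other single library.

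**Figure D1:**
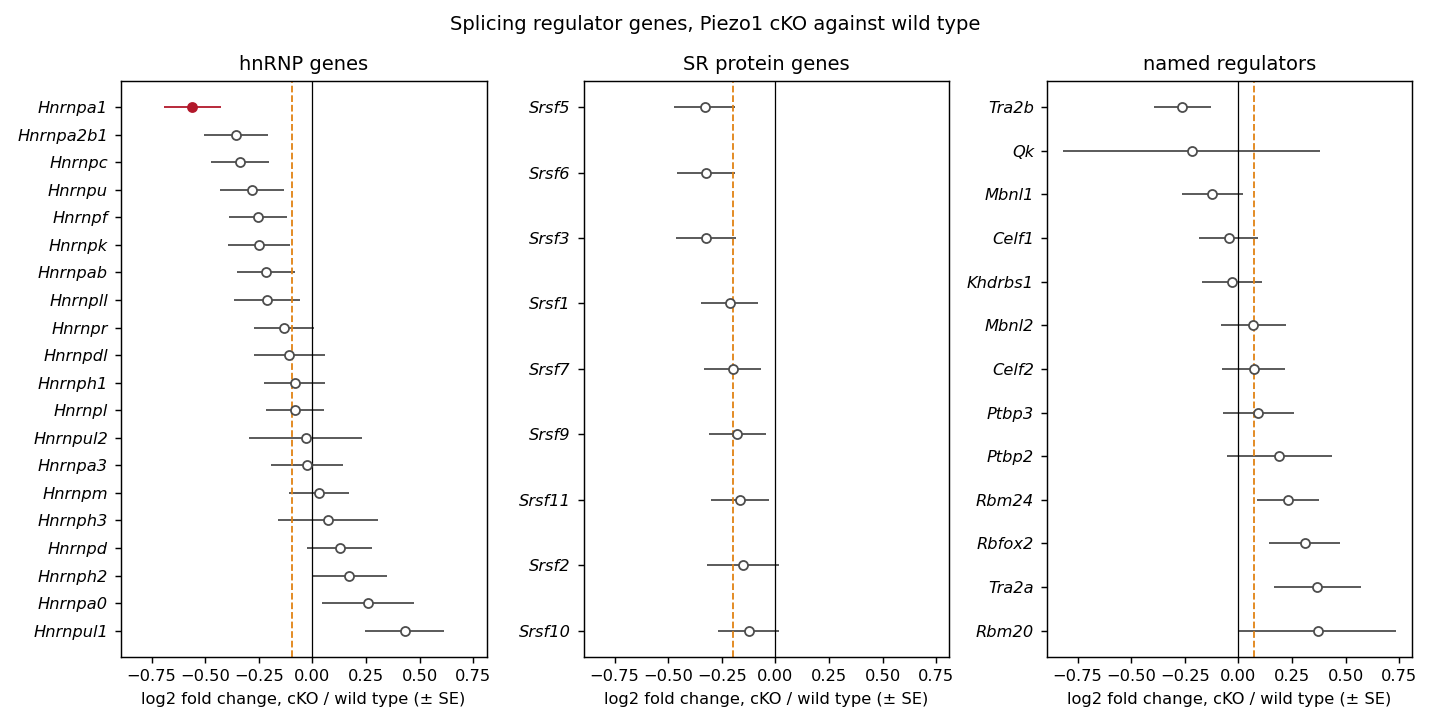
Log2 fold changes of the 42 tested splicing regulators, *Piezo1* cKO over wild type, with bars of 1 SE (n = 3 libraries a group), in 3 panels for hnRNP genes, SR protein genes and named regulators. The filled red point is *Hnrnpa1*, which passed the edgeR test, the solid line marks 0 and the dashed line the median of each class, at -0.10, -0.20 and 0.07.

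As a share of all counts, the 49 genes took up 1.26%, 1.38% and 1.23% in the wild type libraries and 1.25%, 1.11% and 1.18% in the *Piezo1* cKO libraries. Their summed level was 12879 ± 785 CPM in wild type and 11811 ± 732 CPM in *Piezo1* cKO (SD, n = 3 each), with overlapping libraries. The hnRNP genes summed to 7442 ± 452 against 6686 ± 659 CPM and the SR protein genes to 3399 ± 343 against 3009 ± 154 CPM. For the named regulators the sums were 2038 ± 37.9 and 2116 ± 81.7 CPM. On this scale the groups overlapped in each class. With TMM scaling, a comparison by class added after seeing the data, the hnRNP genes summed to 7439, 8081 and 7400 TMM CPM in wild type and 7346, 5599 and 6642 TMM CPM in *Piezo1* cKO. The groups were then separate, by a gap of 0.698% of the wild type mean. All 49 genes summed to 13223 ± 688 and 11524 ± 1140 TMM CPM (SD, n = 3 each), a ratio of 0.872 in place of 0.917 on library totals, and were also separate, by 0.598%. The SR protein genes (3489 ± 325 and 2935 ± 257 TMM CPM) and the named regulators (2093 ± 54.1 and 2060 ± 50.9 TMM CPM) overlapped on both scales, and the ratio of the named regulators turned from 1.04 to 0.984, so whether the summed hnRNP level separated the groups depended on the scaling. In bulk RNA, fewer cells of a type and less RNA per cell cannot be told apart.

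*Hnrnpa1* encodes hnRNP A1, an RNA-binding protein that promotes exon skipping and shuttles between nucleus and cytoplasm. The gene lies on chr15:103240432-103246692 of GRCm38, plus strand. It was at 482, 476 and 405 TMM CPM in wild type libraries 1, 2 and 3 and at 324, 276 and 323 TMM CPM in *Piezo1* cKO libraries 1, 2 and 3, from 335, 427, 343, 256, 209 and 244 counts. Every *Piezo1* cKO library was below every wild type library, and *Piezo1* cKO library 2 was the lowest. The means were 454 ± 42.8 and 308 ± 27.6 TMM CPM (SD, n = 3 each). The log2 fold change was -0.56 (SE 0.13, edgeR adjusted p = 0.0158). DESeq2 gave an adjusted p of 0.0168 and limma-voom 0.0351. The call was lost when wild type library 1 (edgeR adjusted p = 0.0748), *Piezo1* cKO library 2 (0.202) or *Piezo1* cKO library 3 (0.0818) was left out. It was also lost under cyclic loess scaling (limma, 0.0770) and with a replicate block (adjusted p = 0.0567). The log2 fold change ranged from -0.64 to -0.44 over all 15 alternatives.

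Several other genes carry stretches that resemble the *Hnrnpa1* transcript. In 9 other annotated genes a stretch of at least 200 bases matched it at 95% identity or more, and the 6 of these in the count table held 38 counts in all 6 libraries together, against 1814 for *Hnrnpa1*. None matched its last 300 bases, the window taken here as its 3′ end. Where in the transcript the reads fell was not measured. How the authors' counting treated reads that map to several places is not given in the sources used here.

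The promoter of *Hnrnpa1* is shown because it carries 4 matches to CCAAT, the core of the binding site of the factor NF-Y, on the strand of the gene at 191, 79, 49 and 19 bases before the RefSeq start site. The 200 bases before that start, at chr15:103240197-103240396 of GRCm38.p6, plus strand, are from RefSeq and have each CCAAT in capitals.
Hnrnpa1: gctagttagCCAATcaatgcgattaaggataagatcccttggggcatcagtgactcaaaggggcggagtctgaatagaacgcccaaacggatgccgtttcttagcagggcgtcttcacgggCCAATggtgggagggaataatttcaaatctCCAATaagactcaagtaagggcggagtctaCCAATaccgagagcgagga
Counted on both strands over the 300 bases around the start (250 before and 50 after), 4 or more CCAAT matches were present in 5 of the 43 members with a RefSeq promoter, in 2.27% of 6706 tested genes and in 1.22% of 27025 genes. The 5 were *Hnrnpa1*, *Hnrnpc*, *Hnrnpl*, *Hnrnpr* and *Hnrnpul1*, all hnRNP genes. Their values did not share a direction: *Hnrnpa1* fell, and the log2 fold change was -0.34 for *Hnrnpc*, -0.08 for *Hnrnpl*, -0.13 for *Hnrnpr* and 0.43 for *Hnrnpul1*. A match is a description of these letters, and no binding was measured.

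Among the other hnRNP genes, *Hnrnpc* and *Hnrnpa2b1* had the smallest p-values on the lower side, and neither passed the test. *Hnrnpc* encodes the C proteins, which bind uridine tracts in nascent RNA. It was at 643, 711 and 651 TMM CPM in wild type and 568, 471 and 546 TMM CPM in *Piezo1* cKO (log2 fold change -0.34, SE 0.14, edgeR adjusted p = 0.259). The groups did not overlap, and *Piezo1* cKO library 2 was the lowest. The last 300 bases of *Hnrnpc* matched 1 pseudogene, which held 97 counts against 2852 for the gene. *Hnrnpa2b1*, a close relative of *Hnrnpa1* that also takes part in RNA transport, was at 1434, 1448 and 1372 TMM CPM in wild type and 1292, 876 and 1158 TMM CPM in *Piezo1* cKO (log2 fold change -0.35, SE 0.15, adjusted p = 0.296). The groups did not overlap either, and the spread within *Piezo1* cKO (SD 212) was larger than in wild type (SD 40.3) because library 2 was low, without which the log2 fold change was -0.21. Under cyclic loess scaling the log2 fold changes shrank to -0.13 for *Hnrnpa2b1* and -0.18 for *Hnrnpc*.

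*Hnrnpa2b1*, *Hnrnpu* and *Hnrnpk* had the highest UMI counts of the hnRNP class. *Hnrnpu*, also known as scaffold attachment factor A, binds RNA and chromatin, and stood at 1113, 1250 and 1132 TMM CPM in wild type and 1152, 728 and 994 TMM CPM in *Piezo1* cKO (log2 fold change -0.28, SE 0.15, adjusted p = 0.444). Here the groups overlapped, since *Piezo1* cKO library 1 was above wild type libraries 1 and 3. *Hnrnpk*, a KH-domain protein that binds cytidine-rich RNA, was at 1100, 1075 and 1026 TMM CPM in wild type and 996, 769 and 928 TMM CPM in *Piezo1* cKO (log2 fold change -0.25, SE 0.14, adjusted p = 0.498). Its groups were separate by a narrow gap. The last 300 bases of *Hnrnpk* matched 2 pseudogenes, which together held 88 counts against 4666 for the gene. *Hnrnpf*, which binds guanine tracts, was the fifth hnRNP gene with separate groups on the lower side, at 507 ± 3.94 TMM CPM in wild type and 425 ± 49.3 TMM CPM in *Piezo1* cKO (SD, n = 3 each, adjusted p = 0.444). Its last 300 bases matched 9 other genes, 7 of them pseudogenes. The 4 of these in the count table held 9 counts, against 2215 for *Hnrnpf*. In 2 of its 10 coding transcripts the last 300 bases also overlap antisense genes, 2 in all, so its level is uncertain.

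*Hnrnpul1*, an hnRNP U-like gene whose product also takes part in the response to DNA damage, had the highest log2 fold change of the members tested. It was at 61.8, 74.7 and 64.9 TMM CPM in wild type and 78.6, 85.8 and 109 TMM CPM in *Piezo1* cKO. Every *Piezo1* cKO library was above every wild type library, but the difference (log2 fold change 0.43, SE 0.19) did not pass the test (edgeR adjusted p = 0.319), and was 0.28 without *Piezo1* cKO library 3. The remaining 13 hnRNP genes had log2 fold changes from -0.22 for *Hnrnpab* to 0.26 for *Hnrnpa0*. In each of the 13 the groups overlapped and the test was not passed. Antisense genes overlap the last 300 bases of coding transcripts of *Hnrnpab* (*Phykpl*, 2 of 3 transcripts) and *Hnrnpd* (1 of 6), so these levels are uncertain. *Hnrnpa3*, another relative of *Hnrnpa1*, was nearly level, at 101 ± 3.86 TMM CPM in wild type and 99.0 ± 10.3 TMM CPM in *Piezo1* cKO (SD, n = 3 each, log2 fold change -0.03, SE 0.17). Its last 300 bases matched 26 other genes, 25 of them pseudogenes. The 13 of these in the count table held 18 counts, against 474 for *Hnrnpa3*. The treatment of reads that map to several places is not given in the sources used here, so its level is uncertain.

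The SR protein genes were lower in *Piezo1* cKO as a class of point estimates, from -0.33 for *Srsf5* to -0.12 for *Srsf10*, and 0 of the 9 were called by edgeR, DESeq2 or limma-voom. At an unadjusted edgeR p under 0.05, 3 were lower, against 5.78% of all genes tested. *Srsf3* encodes the smallest SR protein, which also acts as an adaptor for mRNA export, and had the highest UMI count of the class. It was at 838, 868 and 726 TMM CPM in wild type and 677, 572 and 694 TMM CPM in *Piezo1* cKO (log2 fold change -0.32, SE 0.14, edgeR adjusted p = 0.310). The groups were separate, with *Piezo1* cKO library 3 close below wild type library 3. *Srsf6*, an enhancer-binding SR protein, was at 483, 568 and 439 TMM CPM in wild type and 427, 359 and 404 TMM CPM in *Piezo1* cKO (log2 fold change -0.32, SE 0.14, adjusted p = 0.285). Its groups were separate by a similarly narrow gap, and wild type library 2 was the highest. Under cyclic loess scaling the log2 fold changes were -0.14 for *Srsf3* and -0.18 for *Srsf6*, and *Srsf6* was at -0.21 without wild type library 2.

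*Srsf5* had the lowest point estimate of the class, yet its groups overlapped. It was at 326, 307 and 260 TMM CPM in wild type and 292, 218 and 199 TMM CPM in *Piezo1* cKO (log2 fold change -0.33, SE 0.14, adjusted p = 0.304). *Piezo1* cKO library 1 lay above wild type library 3. Without *Piezo1* cKO library 1 the log2 fold change was -0.52 and edgeR called *Srsf5* lower (adjusted p = 0.0454). *Srsf7*, an SR protein with a zinc knuckle, was at 483, 462 and 442 TMM CPM in wild type and 435, 363 and 408 TMM CPM in *Piezo1* cKO (log2 fold change -0.20, SE 0.13, adjusted p = 0.579), with separate groups. *Srsf1*, the founding member of the family, also had separate groups, at 442 ± 43.1 TMM CPM in wild type and 382 ± 30.4 TMM CPM in *Piezo1* cKO (SD, n = 3 each, adjusted p = 0.545). *Srsf2*, *Srsf9*, *Srsf10* and *Srsf11* overlapped between groups, with log2 fold changes between -0.18 and -0.12. The last 300 bases of *Srsf2* overlap *Mettl23* on the other strand, and since the strand setting of the counting is not given in the sources used here, its counts may include that gene.

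**Figure D2:**
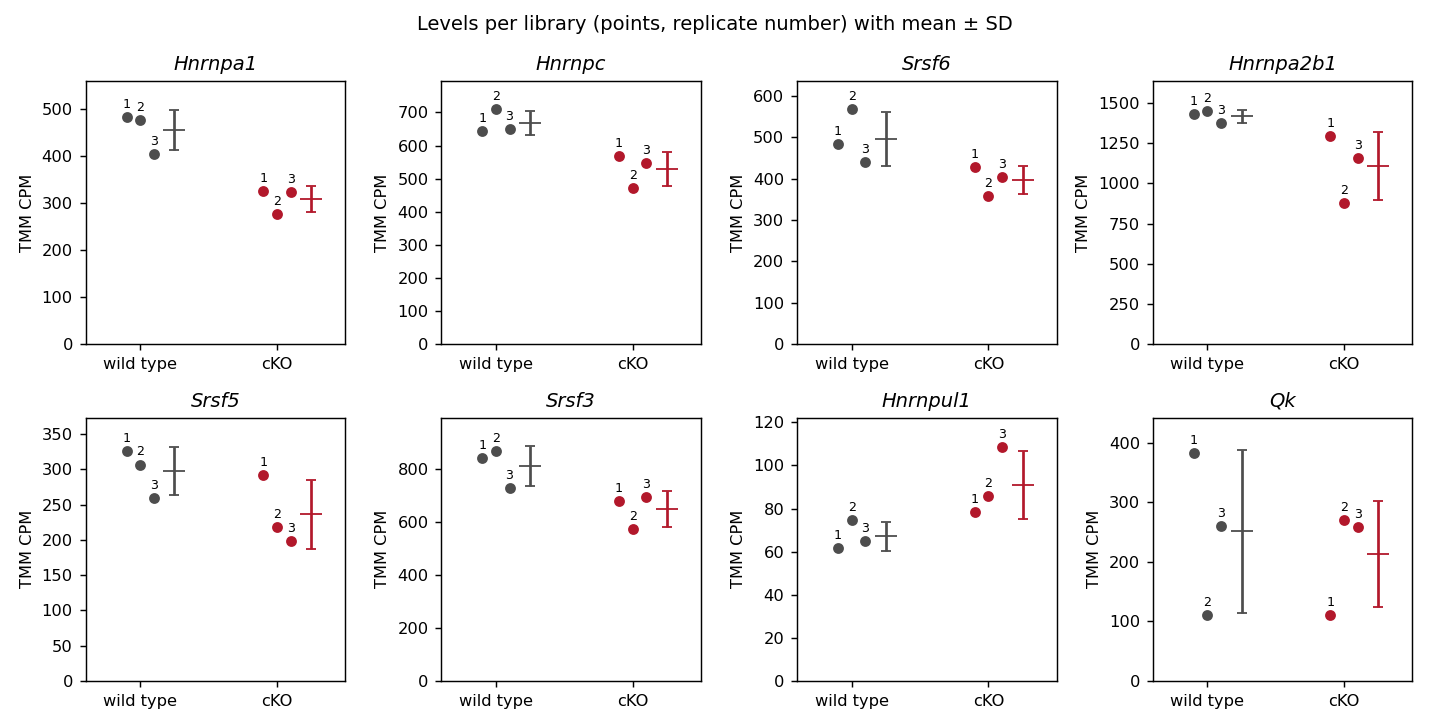
TMM CPM in each library (points, numbered by replicate) with the mean and SD beside them, for the 7 splicing regulators with an unadjusted edgeR p under 0.05 and for *Qk*, with wild type in grey and *Piezo1* cKO in red and every axis starting at 0. The *Hnrnpa1* libraries do not overlap, at 405 TMM CPM or more against 324 or less, *Srsf5* overlaps, and *Qk* is low in 1 library of each group.

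The SR-like transformer-2 genes lay on opposite sides of 0. *Tra2b*, whose product binds purine-rich enhancers and controls many alternative exons, was at 408, 477 and 409 TMM CPM in wild type and 401, 337 and 343 TMM CPM in *Piezo1* cKO (log2 fold change -0.26, SE 0.13, edgeR adjusted p = 0.427). All *Piezo1* cKO libraries were below all wild type libraries in TMM CPM, though not on library totals, and under cyclic loess scaling the log2 fold change was -0.14. Its paralogue *Tra2a* was at 61.8, 75.8 and 50.8 TMM CPM in wild type and 57.0, 110 and 78.2 TMM CPM in *Piezo1* cKO (log2 fold change 0.37, SE 0.20, adjusted p = 0.475). Here the groups overlapped and *Piezo1* cKO library 2 was the highest. *Tra2a* made up 12.6 ± 1.40% of the counts of both genes in wild type and 18.5 ± 6.05% in *Piezo1* cKO (SD, n = 3 each). The share was 12.5% in *Piezo1* cKO library 1, inside the wild type range, so the groups overlapped. Without *Piezo1* cKO library 2 the log2 fold change of *Tra2a* was 0.10, and without *Piezo1* cKO library 1 it was 0.57.

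The RBFOX genes, whose products bind GCAUG motifs beside muscle and neuronal exons, also had higher means in *Piezo1* cKO, and neither was called. *Rbfox2* was at 105, 82.5 and 99.2 TMM CPM in wild type and 106, 135 and 113 TMM CPM in *Piezo1* cKO (log2 fold change 0.31, SE 0.17, adjusted p = 0.457). The groups were separate, though wild type library 1 and *Piezo1* cKO library 1 were nearly level, and without *Piezo1* cKO library 2 the log2 fold change was 0.20. *Rbfox1*, the form associated with differentiated muscle, did not pass the filter: it had 5, 2 and 1 counts in wild type and 6, 11 and 8 counts in *Piezo1* cKO. Over the pooled libraries these were 8 and 25 counts, so that the rate was 3.47 times as high, with 95% limits of 1.52 and 8.91 by the exact Poisson method for counting error only. The same limits were computed for every other member below the filter, and each of those intervals included a ratio of 1. With no filter on low counts edgeR gave *Rbfox1* a log2 fold change of 1.67 (SE 0.61, adjusted p = 0.266), so it was not called.

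The MBNL and CELF families, whose proteins act against each other at many muscle exons, had overlapping groups in all 4 tested genes, and none was called. *Mbnl1*, which is sequestered by repeat RNA in myotonic dystrophy, was at 197, 205 and 178 TMM CPM in wild type and 166, 176 and 192 TMM CPM in *Piezo1* cKO (log2 fold change -0.12, SE 0.14, adjusted p = 0.814). *Mbnl2* was at 129, 158 and 145 TMM CPM in wild type and 147, 137 and 172 TMM CPM in *Piezo1* cKO (log2 fold change 0.07, SE 0.15, adjusted p = 0.914). Both overlapped between groups, and *Mbnl1* made up 56.5 ± 2.52% of the counts of the MBNL genes in wild type and 53.6 ± 2.22% in *Piezo1* cKO (SD, n = 3 each). *Celf1* was at 207, 234 and 202 TMM CPM in wild type and 212, 205 and 208 TMM CPM in *Piezo1* cKO (log2 fold change -0.04, SE 0.14, adjusted p = 0.941). *Celf2* was at 147, 161 and 169 TMM CPM in wild type and 188, 143 and 171 TMM CPM in *Piezo1* cKO (log2 fold change 0.07, SE 0.15, adjusted p = 0.909). The log2 fold change of *Mbnl1* was -0.069 without wild type library 2, -0.077 without *Piezo1* cKO library 1, -0.18 without *Piezo1* cKO library 3 and -0.045 with library totals only. The sign of *Mbnl2*, *Celf1* and *Celf2* turned under at least 1 alternative each, so no direction is given for them.

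The polypyrimidine tract-binding (PTB) genes encode repressors that hold back tissue-specific exons in precursor cells. *Ptbp3* was at 102, 126 and 111 TMM CPM in wild type and 139, 92.5 and 131 TMM CPM in *Piezo1* cKO (log2 fold change 0.09, SE 0.16, adjusted p = 0.893), and its sign also turned under 1 alternative. *Ptbp2*, the form best known from neurons, was at 36.0, 43.5 and 33.1 TMM CPM in wild type and 44.4, 42.3 and 42.4 TMM CPM in *Piezo1* cKO (log2 fold change 0.19, SE 0.25, adjusted p = 0.833), a value that was 0.33 without wild type library 2 and 0.10 without wild type library 3. *Ptbp1* did not pass the filter, with 7, 9 and 4 counts in wild type and 6, 2 and 4 counts in *Piezo1* cKO. Of the UMI counts of the family, *Ptbp3* held 71.2 ± 2.98% in wild type and 71.2 ± 3.35% in *Piezo1* cKO, and *Ptbp1* 5.19 ± 1.84% and 2.95 ± 1.03% (SD, n = 3 each). The last 300 bases of 2 of 6 coding *Ptbp1* transcripts overlap an antisense gene, and its low count is therefore uncertain.

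*Rbm24*, a muscle-enriched protein needed for the splicing of sarcomere genes, was at 196, 146 and 181 TMM CPM in wild type and 229, 186 and 195 TMM CPM in *Piezo1* cKO (log2 fold change 0.23, SE 0.14, adjusted p = 0.544). *Rbm20*, the regulator of titin splicing, had few counts, at 20.1, 10.0 and 14.2 TMM CPM in wild type and 17.7, 22.5 and 15.9 TMM CPM in *Piezo1* cKO (log2 fold change 0.37, SE 0.36, adjusted p = 0.752). Both overlapped between groups, and without wild type library 2 the log2 fold changes were 0.12 for *Rbm24* and 0.15 for *Rbm20*. Without 1 library at a time *Rbm20* reached 0.63, without wild type library 1. *Khdrbs1*, which encodes the signal-regulated splicing factor Sam68, was at 190, 268 and 239 TMM CPM in wild type and 237, 217 and 232 TMM CPM in *Piezo1* cKO (log2 fold change -0.03, SE 0.14, adjusted p = 0.961). Its sign turned under 5 of the 15 alternatives.

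*Qk*, the gene of the STAR-family protein quaking, varied more between replicates than between groups. It was at 384, 110 and 260 TMM CPM in wild type and 112, 271 and 258 TMM CPM in *Piezo1* cKO, from 267, 99, 220, 88, 205 and 195 counts. Wild type library 2 and *Piezo1* cKO library 1 were low, and wild type library 1 was the highest. The log2 fold change was -0.22 (SE 0.60, adjusted p = 0.938). Its biological coefficient of variation was 0.213, at the 99.5th percentile of all genes tested, whose median was 0.114. These coefficients are edgeR estimates drawn towards those of other genes, made without the robust setting of the main fit. For comparison, that of *Hnrnpa1* was 0.101.

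The remaining genes below the filter were few in counts. *Srsf4* had 1, 3 and 1 counts in wild type and 0 in each *Piezo1* cKO library, and *Srsf12* had 1 in each wild type library and 0, 2 and 0 in *Piezo1* cKO. *Mbnl3* had 4, 5 and 3 counts in wild type and 3, 0 and 3 in *Piezo1* cKO. *Rbm38* had 2, 3 and 3 counts in wild type and 4, 6 and 2 in *Piezo1* cKO. *Nova1*, a regulator known from neurons, had 1, 0 and 1 counts in wild type and 1, 1 and 0 in *Piezo1* cKO. A floor of 3 counts corresponds to 3.22 to 4.13 CPM in these libraries, and none of these genes was called with no filter on low counts. Of the genes left out for the -ps suffix, *Srsf3-ps* had 104, 96 and 85 counts in wild type and 74, 64 and 72 in *Piezo1* cKO. These raw counts are not scaled to library totals. *Srsf3*, its parent by name, was also at lower raw counts in *Piezo1* cKO. The symbol *Srsf3-ps* was not found in the annotation, so its counts did not enter the search for similar stretches. The treatment of reads that map to several places is not given, so the level of *Srsf3* is uncertain.

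**Figure D3:**
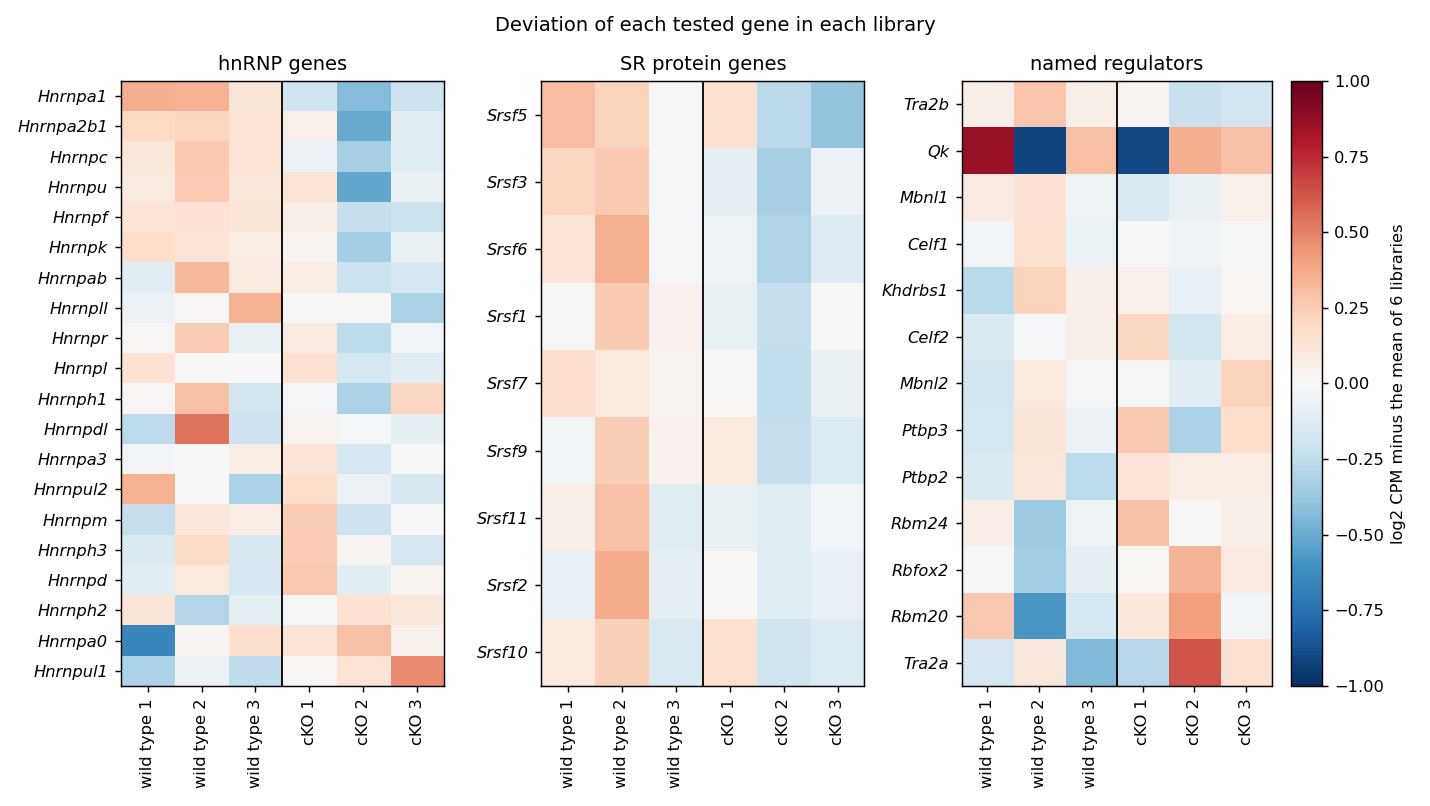
Deviation of each tested splicing regulator in each library from its mean over the 6 libraries (log2 CPM, colour scale from -1 to 1), in 3 panels by class and ordered by the difference between groups, with a line between wild type and *Piezo1* cKO. *Piezo1* cKO library 2 is low across most hnRNP and SR protein genes and wild type library 2 is high, and *Qk* departs in single libraries of both groups.

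The hnRNP and SR protein genes differed between libraries of the same group. The median deviation of the 9 SR protein genes from their means over all libraries was 0.10, 0.26 and -0.01 (log2) in wild type libraries 1, 2 and 3 and 0.01, -0.23 and -0.08 in *Piezo1* cKO libraries 1, 2 and 3. For the 20 hnRNP genes it was 0.01, 0.14 and 0.07 in wild type and 0.07, -0.19 and -0.08 in *Piezo1* cKO, and for the 13 named regulators -0.03, 0.11 and -0.05 against 0.03, -0.04 and 0.07. Wild type library 2 was thus the highest for each class, and *Piezo1* cKO library 2 the lowest for the hnRNP and SR protein genes, while the median over all genes tested stayed between 0.00 and 0.02 in each library. *Piezo1* cKO library 1 lay within the wild type range for both classes.

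*Piezo1* cKO library 2, the lowest in hnRNP and SR protein genes, was the highest in muscle differentiation genes, and wild type library 2 was the reverse. The median deviation of 14 tested muscle differentiation genes was -0.02, -1.85 and -0.58 (log2) in wild type and 0.39, 1.64 and 0.80 in *Piezo1* cKO. Summed over the 24 of 26 listed genes in the table, with *Tnnt2* the most abundant, the level was 831, 459 and 704 CPM in wild type and 1160, 2961 and 1579 CPM in *Piezo1* cKO. Of the 14, edgeR called 3 higher (*Actn3*, *Tnni2* and *Smyd1*) and 0 lower, while limma-voom called 12 higher and DESeq2 2 of the 9 to which it gave an adjusted p. The list of 12 proliferation genes, with *Ccnb1* the most abundant, summed to 2520, 2959 and 2673 CPM in wild type and 2660, 2218 and 2264 CPM in *Piezo1* cKO. All 12 were below 0 with a median log2 fold change of -0.30, and 0 were called by edgeR, DESeq2 or limma-voom. At an unadjusted edgeR p under 0.05, 5 of the 12 were lower, against 5.78% of all genes tested. The part of differentiation and proliferation in the levels of the splicing regulators was not tested.

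Markers of other cells also differed between libraries. The 6 mural and smooth muscle markers, with *Acta2* the most abundant, summed to 229, 105 and 461 CPM in wild type and 399, 597 and 422 CPM in *Piezo1* cKO, and neither of the 2 tested was called. The 7 fibroblast markers, with *Col3a1* the most abundant, summed to 189, 193 and 333 CPM in wild type and 280, 322 and 268 CPM in *Piezo1* cKO. Of the 2 tested, *Dcn* was called lower by edgeR (log2 fold change -2.17, SE 0.38, adjusted p = 0.000387) and by limma-voom, and DESeq2 gave it no adjusted p. The 4 Schwann and neural markers summed to at most 55.1 CPM, with *Tubb3* the most abundant. Their part in the levels of the splicing regulators was not tested.

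**Figure D4:**
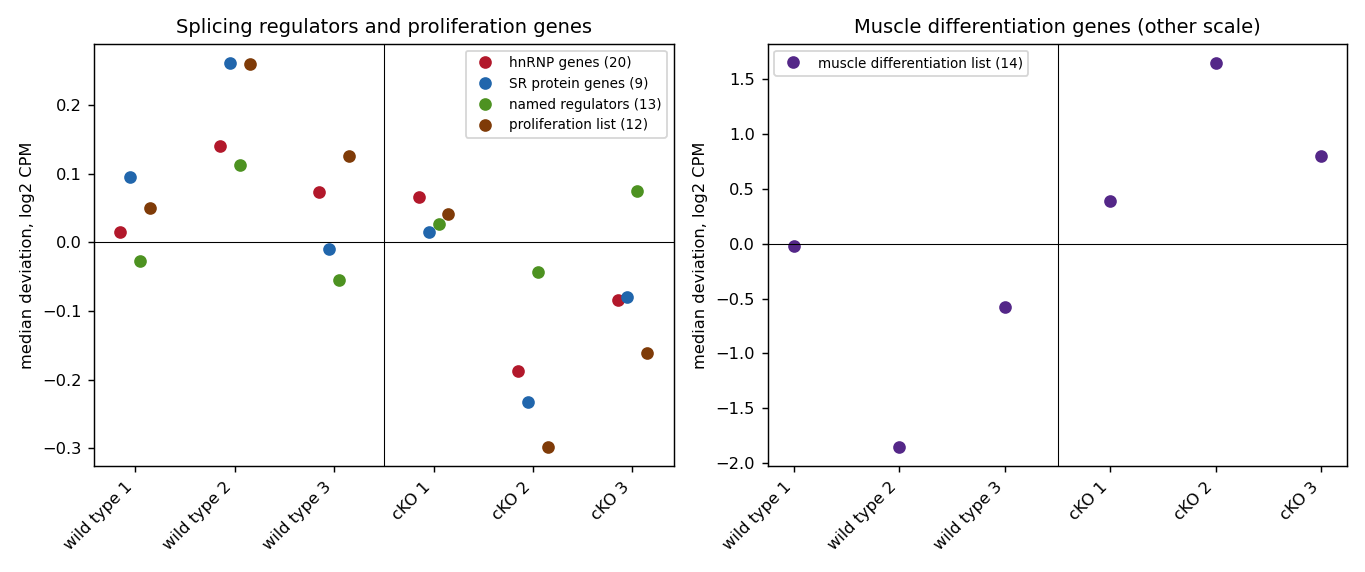
Median deviation (log2 CPM, from each gene's mean over the 6 libraries) of the hnRNP genes, SR protein genes, named regulators and proliferation genes in each library (left) and of 14 muscle differentiation genes (right, on a wider scale), with the number of genes in brackets and a line between wild type and *Piezo1* cKO. Wild type library 2 is highest on the left and lowest on the right (-1.85), and *Piezo1* cKO library 2 is lowest on the left for the hnRNP, SR protein and proliferation genes and highest on the right (1.64).

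Genes that act with the splicing regulators were examined in 3 further lists. Of 25 tested SR protein kinases, importins and SR-related coactivators, 18 were below 0 (median log2 fold change -0.17) and 1 was called. This was *Pnn*, the gene of pinin, an SR-related nuclear protein of the exon junction complex. It was at 295, 241 and 205 TMM CPM in wild type and 177, 141 and 151 TMM CPM in *Piezo1* cKO (log2 fold change -0.65, SE 0.15, edgeR adjusted p = 0.00776). Its groups did not overlap, but the call was not made by DESeq2, nor by edgeR without wild type library 1, *Piezo1* cKO library 2 or *Piezo1* cKO library 3. *Srpk1*, a kinase that phosphorylates SR proteins in the cytoplasm, had a log2 fold change of -0.40 (SE 0.15, adjusted p = 0.239), and *Srrm2*, a large SR-related splicing coactivator, -0.32 (SE 0.14, adjusted p = 0.293). Both were named after their values were seen, and neither was called.

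Of 69 tested genes of the small nuclear ribonucleoproteins and the core spliceosome, 54 were below 0 (median log2 fold change -0.13) and 0 were called by edgeR, DESeq2 or limma-voom. At an unadjusted edgeR p under 0.05, 7 were lower and 0 higher, against 5.78% and 6.14% of all genes tested. The 3 smallest p-values belonged to *Ddx23*, a helicase of the U5 particle, at -1.05 (SE 0.32, adjusted p = 0.107), *Usp39* at -0.50 (SE 0.17, adjusted p = 0.162) and *Isy1* at -0.47 (SE 0.17, adjusted p = 0.190). *Ddx23* was called lower by edgeR without *Piezo1* cKO library 1. All 3 had separate groups, and *Ddx23* was at 38.8, 30.1 and 27.2 TMM CPM in wild type and 21.5, 15.8 and 7.95 TMM CPM in *Piezo1* cKO. Of 37 other tested RNA-binding regulators of splicing, 28 were below 0 (median -0.13), and 0 were called by edgeR, DESeq2 or limma-voom. At an unadjusted edgeR p under 0.05, 4 were lower and 1 higher, against the same 5.78% and 6.14% of all genes tested. *Syncrip*, an hnRNP-like protein, was at -0.33 (SE 0.14, adjusted p = 0.308) and the helicase gene *Ddx5* at -0.29 (SE 0.14, adjusted p = 0.376). Its paralogue *Ddx17* was on the other side, at 0.58 (SE 0.25, adjusted p = 0.314), with every *Piezo1* cKO library above every wild type library. The medians of the 3 lists lay between those of the hnRNP genes (-0.10) and the SR protein genes (-0.20).

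Annotated transcript types, which the choice by symbol did not use, were counted beside those of all tested genes. In GENCODE M21, 29 of the 49 (59.2%) have at least 1 transcript annotated as a target of nonsense-mediated decay, against 2530 of 8034 tested protein-coding genes (31.5%), and among the SR protein genes the count was 9 of 11 (81.8%). A transcript with a retained intron is annotated for 37 of 49 (75.5%), against 64.5% of the tested protein-coding genes. The members also had more annotated transcripts, with a median of 8 against 6. Counts at the 3′ end do not tell these transcripts apart, so no share of productive or unproductive RNA could be given.

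The promoters of the SR protein genes often held the letters TGACG, the core of the cAMP response element. Searched on both strands over 250 bases before to 50 bases after the start, it was present in 7 of 11 SR protein genes, 11 of 18 hnRNP genes and 5 of 14 named regulators with a RefSeq promoter, or 23 of 43 (53.5%). It was present in 38.8% of 6706 tested genes and in 23.0% of 27025 genes. The windows around the match nearest to the start are shown for the 6 SR protein genes that have a match before it, because all 9 tested genes of the class lay on the same side of 0. They are from RefSeq, read 5′ to 3′ along the strand of the gene, with TGACG, or CGTCA where the match is on the other strand, in capitals.
Srsf1: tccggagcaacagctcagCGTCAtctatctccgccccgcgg
Srsf3: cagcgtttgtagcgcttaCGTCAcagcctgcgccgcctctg
Srsf5: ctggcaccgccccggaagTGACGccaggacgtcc
Srsf6: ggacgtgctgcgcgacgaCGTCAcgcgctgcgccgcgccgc
Srsf10: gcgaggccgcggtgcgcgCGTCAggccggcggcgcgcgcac
Srsf11: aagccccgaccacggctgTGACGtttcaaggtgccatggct
On GRCm38.p6 these windows are chr11:88047261-88047301 (plus strand) for *Srsf1*, chr17:29032561-29032601 (plus) for *Srsf3*, chr12:80945465-80945498 (plus) for *Srsf5*, chr2:162931441-162931481 (plus) for *Srsf6*, chr4:135855955-135855995 (plus) for *Srsf10* and chr3:158036666-158036706 (minus) for *Srsf11*. No window began more than 116 bases before the start. *Hnrnpa1*, the member that fell, was among the hnRNP genes with no TGACG in this window. The letters did not follow the direction of the values. *Srsf7* (log2 fold change -0.20) and *Srsf9* (-0.18) had no match, and members with a match lay on both sides of 0, such as *Hnrnpc* at -0.34 and *Tra2a* at 0.37. A part of TGACG in the levels was not tested. The full element TGACGTCA, which contains TGACG, was found in 1 of 43 members (2.33%), against 3.94% of tested genes.

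The other promoter motifs searched follow, with the share of tested genes beside each. CCAAT was present in 21 of 43 members (48.8%, against 43.1% of tested genes), and within the hnRNP class in 13 of 18. The GC box GGGCGG was present in 76.7% of members and 73.3% of tested genes, and the E-box CANNTG, which includes CAGCTG and CACGTG, in 65.1% and 65.4%. CAGCTG, the form bound by MyoD, was present in 14.0% and 16.6%, and CACGTG in 16.3% and 13.0%. The ETS letters CCGGAAG were present in 14.0% of members and 23.8% of tested genes and TATAAA in 14.0% and 8.13%. The NRF1 motif was found in 1 of 43 members (2.33%), against 2.7% of tested genes. Shares over 43 promoters move by 2.33 percentage points with each gene.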

How the data were processed

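Total RNA (500 pg) from MuSCs cultured for 3 d was reverse transcribed with barcoded oligo-dT primers and amplified by 12 cycles of PCR in 3 wild type and 3 *Piezo1* cKO samples. Per the submitters' processing notes, reads were handled with STAR 2.7.9a, featureCounts 2.0.1 and UMI-tools 1.1.1 on GRCm38. The deposited values are raw UMI counts per gene, made by the authors and not normalised, and settings for strand and for reads that map to several places are not given in the sources used here.

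Counts were analysed in R 4.3.3 with edgeR 4.0.16 (filterByExpr with a minimum count of 10, TMM scaling, robust quasi-likelihood fit, Benjamini-Hochberg adjustment over all 8551 genes tested, called at an adjusted p under 0.05). Groups were taken from the sample labels, without covariates. Each SE is the size of the edgeR log2 fold change divided by the square root of the F statistic of its test. The variance estimates in that test draw on all genes, so an SE is not the spread of 1 gene between libraries. Alternatives were DESeq2 1.42.0, limma 3.58.1 (voom, and cyclic loess scaling), other scalings and filters, thinning to 726378 counts, a replicate block and leaving out each library. The code was tested on simulated data. The smallest library limits precision, and the interval and floors printed cover counting error only. Coordinates and transcript types are from GENCODE M21 (GRCm38), promoters from RefSeq (GRCm38.p6), which held 43 of the 49 genes.

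Values in every library were given for members called or with an unadjusted edgeR p under 0.05, for the named regulators tested, for the 3 most abundant members of the hnRNP and SR classes, and for members below the filter. Of the 3 pathway lists, the genes called, or otherwise those with the 3 smallest p-values, were named. The members and lists were chosen with earlier results of these data known.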

Additional observations from a re-analysis of the deposited data

How the results depend on the processing

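*Hnrnpa1* kept a negative log2 fold change under all 15 alternatives, from -0.64 to -0.44, with adjusted p-values from 0.00888 to 0.202. The number of splicing regulators called lower was 1, but 0 under cyclic loess scaling and with a replicate block. It ranged from 0 to 2 when 1 library was left out, and the second was *Srsf5* without *Piezo1* cKO library 1. Their median log2 fold change, -0.11, was -0.046 under cyclic loess and -0.040 with library totals only, where that of all genes was 0.078 against 0.002, and ranged from -0.19 to -0.027 when 1 library was left out. The number below 0, an alternative count chosen after seeing the data, was 24 with library totals only and 26 under cyclic loess. Over all genes, the counts called higher and lower were 40 and 27, against 12 and 15 by DESeq2, 17 and 15 under cyclic loess, 82 and 47 with no filter and 76 and 48 at an adjusted p under 0.1. Leaving out 1 library gave 4 to 101 higher and 2 to 73 lower, the fewest without *Piezo1* cKO library 2 and the most without *Piezo1* cKO library 1. Other splicing genes called lower numbered 1 (*Pnn*), 0 by DESeq2 and 0 to 2 with 1 library left out, with *Ddx23* added without *Piezo1* cKO library 1 and *Khdrbs3* without wild type library 2.

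Same-numbered libraries of the groups were not paired by the labels, and their deviations correlated at -0.14, -0.20 and 0.01. A replicate block left 26 genes called higher and 0 splicing regulators lower, with *Hnrnpa1* at an adjusted p of 0.0567.

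Signs turned for uncalled genes. With library totals only, *Celf1* was at 0.031 and *Khdrbs1* at 0.045; under cyclic loess they were at 0.018 and 0.057, and *Khdrbs1* was at 0.013 after thinning. With 1 library left out, log2 fold changes ranged from -0.088 to 0.032 for *Celf1*, -0.025 to 0.17 for *Celf2*, -0.14 to 0.092 for *Khdrbs1*, -0.030 to 0.15 for *Mbnl2*, -0.026 to 0.25 for *Ptbp3* and -0.58 to 0.21 for *Qk*. The causes were not tested.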
